A study of Homo sapiens with 8 samples.

Results

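The genes described here are GPX8, TXN, TXNRD1 and OSGIN1, 4 of the 14884 genes measured, each read by 1 probe set. They were chosen by name, with their differences between the RWDD4 and control clones already known, and where a gene had several probe sets the brightest on average was used. Their differences are therefore given as descriptions without a test. The study measured RNA of 8 clonal isolates of PC-3, a line from human prostate cancer that grows without androgen, with 1 Affymetrix array per clone. The RWDD4 group comprised 4 clones with a lentiviral vector carrying RWDD4 (clones 17, 24, 5 and 6), and the control group comprised 4 clones with the empty vector (clones 2, 3, 4 and 5). All 8 clones had passed through vector delivery, selection with blastocydin, as the design text spells it, and single-clone propagation. Each clone is a separate isolate, and nothing in the labels gives a second culture or extraction of the same clone. The promoter that drives RWDD4 in the vector is not given in the sources used here.

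Thioredoxin, encoded by TXN, is a small protein that reduces disulfide bonds in other proteins and passes electrons to peroxiredoxins, which break down hydrogen peroxide. Thioredoxin reductase 1, encoded by TXNRD1, is a selenoprotein that recharges thioredoxin with electrons from NADPH in the cytosol. GPX8 is a member of the glutathione peroxidase family that sits in the membrane of the endoplasmic reticulum and has a cysteine in place of the selenocysteine of the classical members. OSGIN1, oxidative stress induced growth inhibitor 1, restrains proliferation and is induced by oxidants. TXN, TXNRD1 and OSGIN1 are all known targets of NRF2, the transcription factor of the antioxidant response, which KEAP1 and the CUL3 ubiquitin ligase hold at a low level in unstressed cells.

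All values are log2 expression values after RMA, a procedure that puts arrays on a common scale and condenses each probe set into 1 value. Such values compare 1 gene between arrays and do not rank genes by abundance. They also cannot tell a change in RNA per cell from a change in the make-up of a clone's cell population. RWDD4 itself averaged 10.30 ± 0.29 in the RWDD4 clones and 7.36 ± 0.58 in the control clones (SD, n = 4 each), a difference of 2.94; the exact two-sided permutation test gave a p of 0.0286, the lowest possible with groups of 4. Over all genes 46.7% passed limma's test at an adjusted p under 0.05, with 25.1% higher and 21.6% lower in the RWDD4 clones, so that a call was common. After median centring the calls were split into 3307 higher and 5765 lower, against 3741 higher and 3214 lower as reported, and that scaling moved the median difference of all genes to -0.21, against -0.08 as reported. Of 4 epithelial markers measured, the keratins KRT8, KRT18 and KRT19 fell by 0.28, 0.40 and 0.54 (limma, adjusted p 0.0289, 0.0144 and 0.00571) and EPCAM lay at 0.13 (adjusted p 0.52). The 4 markers of blood and stromal cells that were measured had a mean level per clone of 5.01 to 5.08 with RWDD4 and of 5.25 to 5.49 with the empty vector, and their part in the results below was not tested. Most defining markers of those cells (such as PTPRC, CD3E, COL1A1, COL1A2 and ACTA2) were not analysed here.

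GPX8 showed the widest separation of the 4 genes. It lay at 8.08, 8.44, 8.54 and 9.09 in RWDD4 clones 17, 24, 5 and 6, against 4.52, 6.20, 5.90 and 6.24 in control clones 2, 3, 4 and 5. Every RWDD4 clone exceeded every control clone, with a gap of 1.84 between the nearest clones of the groups, and control clone 2 stood well below the other control clones. The means were 8.54 ± 0.42 in the RWDD4 clones and 5.71 ± 0.81 in the control clones (SD, n = 4 each), a difference of 2.82 (SE 0.35) or 7.07-fold. Of all genes 9.74% rose at least 2-fold, the range that GPX8 and, barely, TXN reached. Ranked by difference, GPX8 came at place 3 among all genes. The value of control clone 2 was below its own array's median over all probe sets (4.94). How far that value stood above background is not known, nor, therefore, whether the fold is a lower bound. Without control clone 2 the difference was 2.42 (SE 0.20), and the spread among the remaining control clones was small beside it.

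TXN was higher in the RWDD4 clones by a smaller and more even margin. Clones 17, 24, 5 and 6 lay at 11.70, 11.36, 11.90 and 11.51, against 10.69, 10.62, 10.31 and 10.80 in control clones 2, 3, 4 and 5. The groups did not overlap, the nearest clones being RWDD4 clone 24 and control clone 5, 0.56 apart. The means were 11.62 ± 0.24 in the RWDD4 clones and 10.60 ± 0.21 in the control clones (SD, n = 4 each), which is a difference of 1.01 (SE 0.14) or 2.02-fold. Control clone 2, the lowest clone for GPX8 and TXNRD1, was not low for TXN.

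TXNRD1 lay at 10.17, 10.09, 9.87 and 10.06 in RWDD4 clones 17, 24, 5 and 6, against 8.81, 9.33, 9.29 and 9.40 in control clones 2, 3, 4 and 5. The groups were again apart, by 0.47 between RWDD4 clone 5 and control clone 5. Means were 10.04 ± 0.13 in the RWDD4 clones and 9.21 ± 0.27 in the control clones (SD, n = 4 each), a difference of 0.84 (SE 0.13) or 1.79-fold. Without control clone 2 the difference was 0.70 (SE 0.10).

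OSGIN1 ran the other way. It lay at 6.13, 6.36, 6.10 and 6.02 in RWDD4 clones 17, 24, 5 and 6, against 6.43, 6.63, 6.54 and 6.47 in control clones 2, 3, 4 and 5. The groups came within 0.074 of each other, at RWDD4 clone 24 and control clone 2. Means were 6.15 ± 0.14 in the RWDD4 clones and 6.52 ± 0.09 in the control clones (SD, n = 4 each), a difference of -0.36 (SE 0.10), or 1.29-fold lower. Over all genes the groups did not overlap for 44.8%, so the absence of overlap in all 4 genes, which were chosen for this contrast, is a description only.

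**Figure D1:**
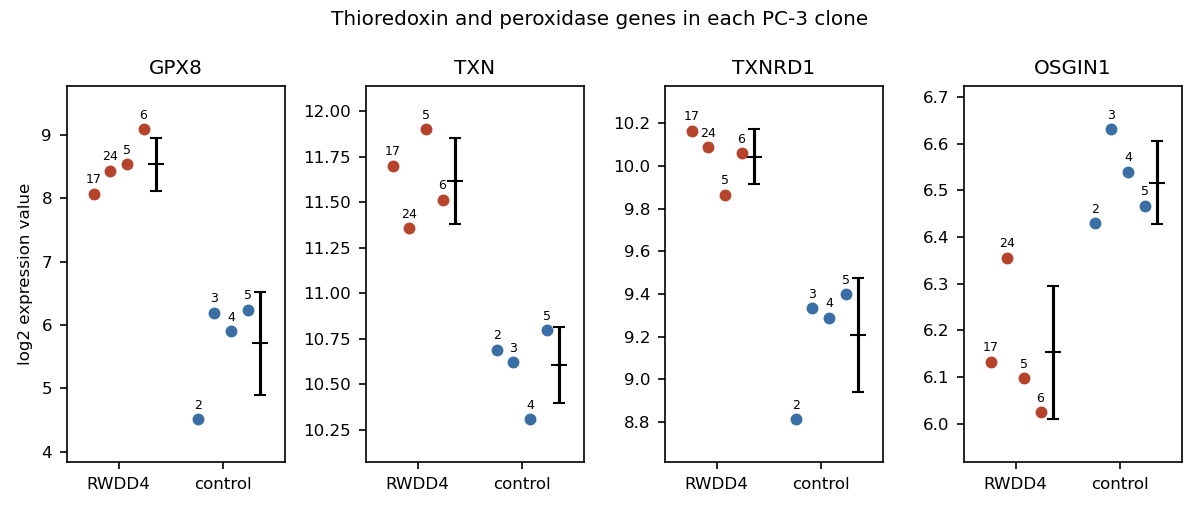
Log2 expression value (vertical axis, a separate scale per gene) of GPX8, TXN, TXNRD1 and OSGIN1 in the 4 RWDD4 clones (left in each panel) and the 4 control clones (right), with clone numbers beside the points and the group mean and SD as black bars. The groups do not overlap in any panel. GPX8 and TXNRD1 are lowest in control clone 2, at 4.52 and 8.81.

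The clones did not keep 1 order across these genes. Among RWDD4 clones GPX8 was highest in clone 6, TXN in clone 5, TXNRD1 in clone 17 and OSGIN1 in clone 24. Clone 5 held both the highest TXN and the lowest TXNRD1 value of the RWDD4 group. The spread among control clones exceeded that among RWDD4 clones for GPX8 (SD 0.42 in the RWDD4 clones and 0.81 in the control clones) and TXNRD1 (0.13 in the RWDD4 clones and 0.27 in the control clones), and was the smaller for TXN and OSGIN1. As a measure of likeness, each gene's 8 values were taken less their mean and the root-mean-square distance between profiles was computed. TXN and TXNRD1 were 0.31 apart on this measure, while GPX8 was 1.09 from each of them.

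The genes closest to GPX8 by this distance were MTREX, whose helicase feeds RNA to the nuclear exosome, at 0.23, SMC2 of the condensin complex at 0.26, and ECT2, an exchange factor needed for cytokinesis, at 0.29. TXN had SUB1, TPRKB and ZFP62 nearest, at 0.088, 0.098 and 0.099. For TXNRD1 the nearest were GET1, which helps insert tail-anchored proteins into the endoplasmic reticulum membrane, at 0.073, the endocytic scaffold gene ITSN1 at 0.084 and TMED5 of the early secretory pathway at 0.088. OSGIN1 lay closest to MROH6, SLC66A2 and ADM, the gene of the peptide hormone adrenomedullin, at 0.046, 0.050 and 0.051. Many protein-coding genes had such profiles: 640 lay within 0.2 of TXNRD1 and 4059 within 0.2 of OSGIN1, against 154 for TXN and none for GPX8. The distance was not scaled, so these counts depend on how far each gene varied. The root-mean-square of a gene's values about their mean was 0.21 for OSGIN1 and 0.46 for TXNRD1. It was 0.54 for TXN and 1.52 for GPX8. The counts therefore do not show that a profile was rare or common in shape.

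The sequence before the gene start was read for 2 short motifs, because TXN, TXNRD1 and OSGIN1 are NRF2 targets and TXN and TXNRD1 moved in the same direction. The first motif was TGACNNNGC, the core of the antioxidant response element that NRF2 binds, and the second was TATAAA, the TATA box; both strands were searched, and overlapping matches were kept. Within 250 bases before to 50 after the RefSeq gene start (GRCh38.p14), 13.6% of 27305 promoters held the first motif and 12.0% the second. TXNRD1 held 2 matches to the first, TGACTTCGC starting 99 bases before the start and, on the opposite strand, TGACGGAGC from 8 bases before it. TXN held none, but had TATAAA on both strands from 32 and 30 bases before its start, in overlapping positions. GPX8 and OSGIN1 held neither motif in this window. Each gene was read only at the start of its RefSeq span. Other transcript starts, where a gene has them, were not searched. Which start gave the RNA measured on the arrays was not determined, so the matches are those of this window only. The 3 genes that were higher in the RWDD4 clones are shown from 250 bases before to 10 after the start, with the matches in capitals (antioxidant core in TXNRD1, TATA in TXN). The windows are chr12:104215529-104215788 on the plus strand for TXNRD1, chr9:110256498-110256757 on the minus strand for TXN and chr5:55159921-55160180 on the plus strand for GPX8.
TXNRD1: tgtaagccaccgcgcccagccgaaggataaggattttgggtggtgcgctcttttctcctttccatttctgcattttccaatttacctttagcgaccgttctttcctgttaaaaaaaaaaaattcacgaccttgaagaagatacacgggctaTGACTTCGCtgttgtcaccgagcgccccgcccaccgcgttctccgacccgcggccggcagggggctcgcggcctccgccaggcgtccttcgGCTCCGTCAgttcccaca
TXN: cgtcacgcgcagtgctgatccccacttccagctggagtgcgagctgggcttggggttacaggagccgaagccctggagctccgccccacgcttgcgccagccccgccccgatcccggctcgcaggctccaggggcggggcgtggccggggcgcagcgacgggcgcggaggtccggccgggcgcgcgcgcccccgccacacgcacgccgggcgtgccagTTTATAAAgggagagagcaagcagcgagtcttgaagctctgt
GPX8: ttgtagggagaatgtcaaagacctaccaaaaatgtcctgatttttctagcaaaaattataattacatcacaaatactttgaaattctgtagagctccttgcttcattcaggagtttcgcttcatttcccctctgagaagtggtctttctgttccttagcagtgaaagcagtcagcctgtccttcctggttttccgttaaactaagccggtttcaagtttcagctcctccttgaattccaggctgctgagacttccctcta
The GPX8 stretch held 41.5% G and C, against 72.7% in TXN and 56.2% in TXNRD1. These matches are letters in a reference sequence, and binding to them was not measured here.

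Other genes of the same pathways were taken from lists by role, of which 77 of 126 listed genes had a value. Of these, 24 rose and 20 fell in the RWDD4 clones (57.1%, against 46.7% of all genes), with a median difference of -0.08, equal to that of all genes to 2 decimals. A gene is said to have risen or fallen when its adjusted p in limma, over all 14884 genes, was under 0.05. Beside the counts of each list below, 25.1% of all genes rose and 21.6% fell.

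In the thioredoxin list 3 of 12 genes rose and 4 fell (median -0.08), against 25.1% of all genes that rose and 21.6% that fell. TXN2 and TXNRD2, the mitochondrial counterparts of TXN and TXNRD1, both fell while the cytosolic pair was higher. TXN2 lay at 8.61 ± 0.10 in the RWDD4 clones and 9.04 ± 0.16 in the control clones (SD, n = 4 each), a fall of 1.35-fold (limma, adjusted p 0.00652). TXNRD2 lay at 7.79 ± 0.16 in the RWDD4 clones and 8.25 ± 0.23 in the control clones (SD, n = 4 each), with an adjusted p of 0.0135 in limma. The thioredoxin-like genes TXNDC9 and TXNL1 rose by 1.07 and 0.92. TXNIP, the inhibitor that binds reduced thioredoxin, lay at 0.34 and did not pass (limma, adjusted p 0.0857), but TXNIP was 0.53 with the span trend removed and 0.43 without RWDD4 clone 6, past the test in both (adjusted p 0.0153 and 0.0494), and 0.16 after quantile normalization. NXN, nucleoredoxin, fell by 0.92, with RWDD4 clone 6 at 6.06 and the other RWDD4 clones at 7.37 to 7.55, against 7.95 to 8.09 in the control clones; without clone 6 its difference was -0.58. Of the methionine sulfoxide reductases, which thioredoxin recharges, MSRB1 fell by 0.48 and MSRB3 rose by 0.47. MSRB3 did not pass after median centring, with the span trend removed, or without RWDD4 clone 24, RWDD4 clone 6 or control clone 4.

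Of the other 7 glutathione peroxidases none rose, 4 fell and 3 did not pass (median -0.25), where 25.1% of all genes rose and 21.6% fell. GPX4, which reduces lipid peroxides, fell by 0.61, the secreted GPX3 by 0.33, the cytosolic GPX1 by 0.32 and GPX2 by 0.25 (limma, adjusted p 0.0133, 0.0123, 0.0214 and 0.04). GPX4 was 11.15 ± 0.39 in the RWDD4 clones and 11.75 ± 0.10 in the control clones (SD, n = 4 each). GPX7, the closest relative of GPX8 and also a protein of the endoplasmic reticulum, lay at -0.09 (limma, adjusted p 0.496). The value of GPX7 was 0.08 with the span trend removed and 0.19 with the within-group axis in the fit, neither past the test, and its mean levels of 4.87 with RWDD4 and 4.96 with the empty vector were close to the array medians of 4.89 to 4.96, so that no direction was read for it. With each array's trend over genomic span removed, none of the 4 falls passed, and 2 passed without RWDD4 clone 5 or without RWDD4 clone 6. GPX2 also did not pass after quantile normalization or cyclic loess, or without RWDD4 clone 17, RWDD4 clone 24, control clone 3 or control clone 5.

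The next list held the peroxiredoxins, most of which draw on thioredoxin, and SRXN1. In it 3 of 6 measured genes rose and none fell (median 0.22), against 25.1% and 21.6% of all genes. PRDX3, the peroxiredoxin of mitochondria, was 10.87 ± 0.25 in the RWDD4 clones and 9.02 ± 0.43 in the control clones (SD, n = 4 each), a rise of 3.60-fold (limma, adjusted p 9.75e-05). PRDX6 and PRDX1 rose by 0.36 and 0.25. The rise of PRDX1 (adjusted p 0.0436) did not pass when any 1 clone other than control clone 3 was left out, nor after quantile normalization or median centring, and 2 members of the list fell after either of those scalings and 1 after cyclic loess. PRDX4 of the endoplasmic reticulum lay at -0.10 and did not pass, but PRDX4 was at -0.30 after quantile normalization, -0.22 after median centring and -0.23 after cyclic loess, past limma's test each time (adjusted p 0.0125, 0.0428 and 0.038). SRXN1, which repairs overoxidized peroxiredoxins, lay at 0.19 and did not pass, and SRXN1 was 0.37 with the span trend removed, where it did (adjusted p 0.0096). Catalase (CAT), a peroxisomal enzyme that breaks down hydrogen peroxide, rose by 0.91, and CCS, which delivers copper to superoxide dismutase 1, fell by 0.35, a call that was lost with the span trend removed.

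Glutathione genes moved in both directions. GSR, glutathione reductase, lay at 0.01 (adjusted p 0.923), GSS, the last enzyme of glutathione synthesis, fell by 0.41, and the glutaredoxins GLRX3 and GLRX rose by 0.58 and 0.44, making 2 of 6 up and 1 down (median -0.02). GLRX did not pass after any of the 3 further scalings, so that 1 gene rose there, nor without RWDD4 clone 24, 5 or 6 or control clone 2 or 4. Of 4 NADPH suppliers NNT, the mitochondrial transhydrogenase, rose by 0.92 and TKT of the pentose phosphate pathway fell by 0.34 (median -0.20). PGD of the same pathway, named after its values were seen, lay at -0.23 and just missed the threshold, and it fell after each of the 3 further scalings, with array weights, with the filter on low means and without control clone 2. GCLC, GCLM and SLC7A11 were not analysed here.

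Of 9 listed NRF2 regulators 6 were measured, and all 6 passed, 2 up and 4 down (median -0.39), where 46.7% of all genes passed. The fall of SQSTM1 was lost when any 1 of 4 clones was left out. NFE2L2, which encodes NRF2, lay at 6.40, 6.44, 6.53 and 6.62 in RWDD4 clones 17, 24, 5 and 6, against 4.96, 5.36, 5.44 and 4.95 in control clones 2, 3, 4 and 5. The groups were wide apart relative to their spread, and NFE2L2 rose by 1.32 (SE 0.13) or 2.49-fold (limma, adjusted p 6.67e-05). CUL3, the scaffold of the ligase that marks NRF2 for degradation, rose by 1.46 and KEAP1, its adaptor, fell by 0.49, with adjusted p values of 7.63e-05 and 0.00262 in limma. The small MAF genes MAFF and MAFG, whose proteins pair with NRF2 on DNA, fell by 0.59 and 0.48, and SQSTM1, which can sequester KEAP1, fell by 0.30 (limma, adjusted p 0.0383). SQSTM1 did not pass without RWDD4 clone 5, RWDD4 clone 6, control clone 3 or control clone 4. The list of NRF2 targets, apart from TXN, TXNRD1 and OSGIN1, held 16 genes, of which 4 were measured (list median 0.46). It is not a full set, since NRF2 targets placed in the other lists were not counted in it. UGDH of glucuronate synthesis rose by 1.25 and OSGIN2 by 1.03. HMOX1, heme oxygenase 1, lay at -0.13 (limma, adjusted p 0.409) and CBR1 at -0.10. After quantile normalization CBR1 fell by 0.29. OSGIN2, the paralog of OSGIN1, was 8.06 ± 0.11 in the RWDD4 clones and 7.03 ± 0.40 in the control clones (SD, n = 4 each), opposite in direction to OSGIN1. NQO1 and BACH1 were not analysed here.

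In the endoplasmic reticulum, where GPX8 resides, 5 of 11 measured genes of oxidative folding rose and 1 fell (median 0.38). The shares of all genes were 25.1% and 21.6%. TMX3, a membrane-bound disulfide isomerase, rose 4.59-fold to 8.52 ± 0.18 in the RWDD4 clones, against 6.33 ± 0.76 in the control clones (SD, n = 4 each; limma, adjusted p 0.00027). ERP44, which retains folding oxidases, and TMX1 rose by 1.48 and 1.10, and TXNDC12 by 0.93. ERO1A, the oxidase that makes hydrogen peroxide while forming disulfides, lay at 10.02, 10.09, 9.83 and 10.15 in RWDD4 clones 17, 24, 5 and 6, against 8.39, 9.46, 9.22 and 9.52 in control clones 2, 3, 4 and 5. ERO1A rose by 0.87 (limma, adjusted p 0.00754). Its lowest value, like that of GPX8 and TMX3 (5.22), was in control clone 2, and without that clone the difference of ERO1A was 0.62. The array of control clone 2 also had the lowest median over genes, 5.89, against 6.00 to 6.13 in the other clones. Its weight in the fit with array weights was the lowest too (0.40, against 0.78 to 1.42). QSOX1, a secreted sulfhydryl oxidase, fell by 0.52. P4HB was not analysed here.

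TXNRD1 is a selenoprotein, and of 13 measured genes of selenoproteins and their synthesis 5 rose and 2 fell (median 0.20). Over all genes 25.1% rose and 21.6% fell. SELENOI and SELENOF rose by 1.22 and 1.18, and SECISBP2, which recruits the machinery that inserts selenocysteine, by 0.88, while SELENOM and SELENOO fell by 0.92 and 0.60. Of 6 NADPH oxidase genes, which produce reactive oxygen species, none rose and the regulators NOXA1 and NOXO1 fell by 0.41 and 0.27 (list median -0.24). NOX1, NOX4, DUOX1 and DUOX2 had group means of 3.45 to 4.63, below the array medians over all probe sets (4.89 to 4.96). A change in these dim genes could have been missed. NOXO1 did not pass when any 1 clone other than control clone 3 was left out, with the span trend removed or with the trend and robust variance model, and 5 members fell after median centring.

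**Figure D2:**
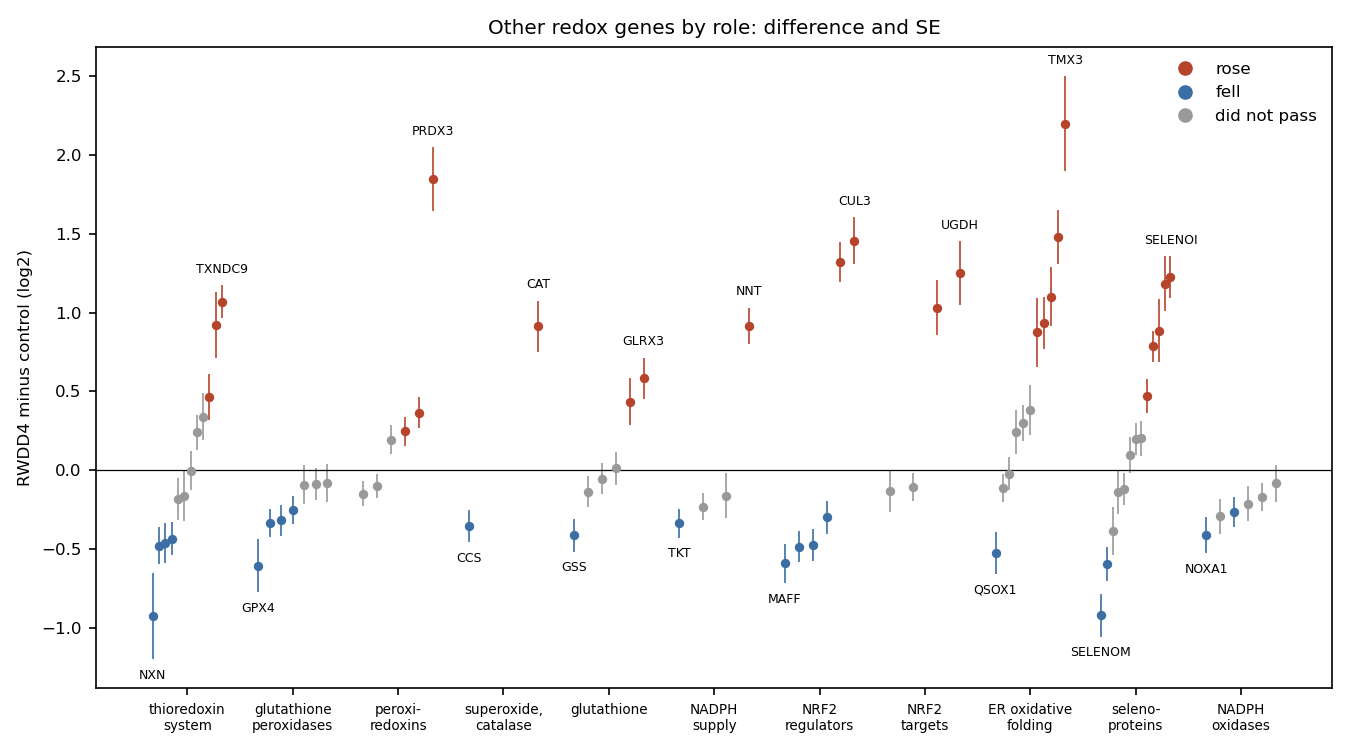
Difference of RWDD4 minus control clones on the log2 scale (vertical axis) with its SE for the 77 measured redox genes other than GPX8, TXN, TXNRD1 and OSGIN1, in columns by role, coloured by whether the gene rose, fell or did not pass. TMX3, PRDX3 and ERP44 are the highest points, no glutathione peroxidase or NADPH oxidase gene rose, and all 6 NRF2 regulators passed, 2 higher and 4 lower (3 lower without RWDD4 clone 5, RWDD4 clone 6, control clone 3 or control clone 4). Of all genes 46.7% passed, 25.1% higher and 21.6% lower.

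Differences followed genomic span in these arrays, and the 4 genes sat at different places along it. GPX8 spans 7.13 kb. In its decile of span, with 1192 protein-coding genes of 4.00 to 7.85 kb, 9.65% rose and 38.7% fell, and GPX8 had the highest difference of the decile, the next being 2.06. TXN and OSGIN1, at 12.7 and 13.1 kb, shared a decile in which 22.4% rose and 29.6% fell. TXNRD1 spans 134.5 kb, and 51.2% of its decile rose, with a median difference of 0.37. With each array's trend over span removed, the differences were 2.99 for GPX8, 1.12 for TXN, 0.56 for TXNRD1 and -0.26 for OSGIN1. The difference of TXNRD1 was thus 0.56 (SE 0.12), against 0.84 as reported, and that of OSGIN1 -0.26 (SE 0.10).

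**Figure D3:**
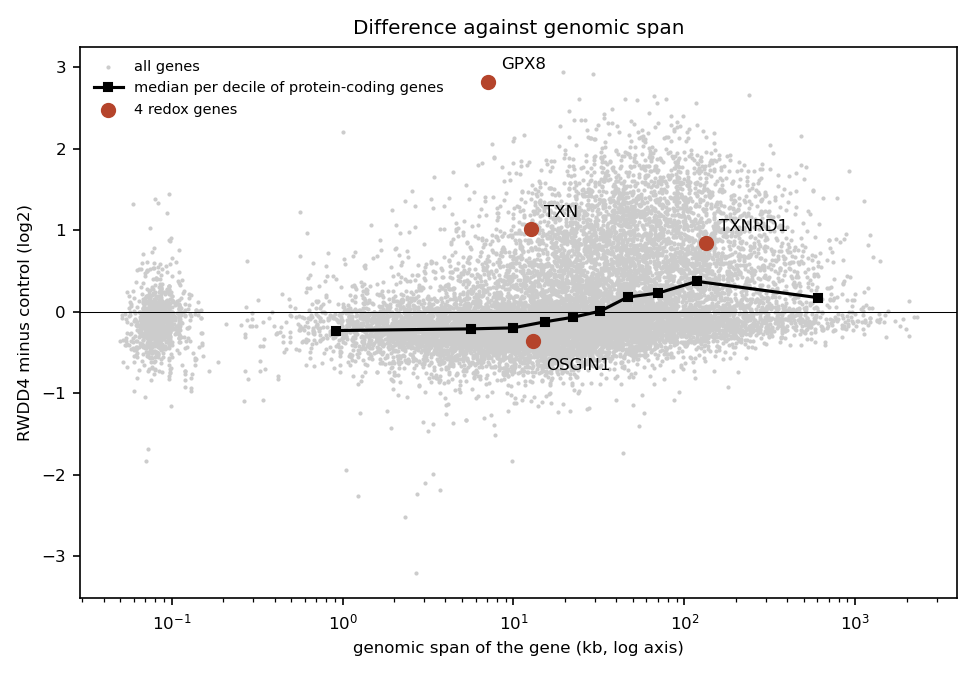
Difference of RWDD4 minus control clones (log2, vertical axis) against the genomic span of the gene (kb, log axis) for all genes in grey, with the median per decile of protein-coding genes as black squares. GPX8, at 7.13 kb and 2.82, is far above the median of its decile (-0.21), while TXNRD1, at 134.5 kb, lies in the decile with a median of 0.37.

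The genes also sit in different surroundings (positions of GRCh38.p14). GPX8 (chr5:55160171-55167297) lies inside the span of CDC20B, whose difference was -0.08 (limma, adjusted p 0.449). Of 14 measured protein-coding genes within 1000 kb of GPX8, 6 rose and none fell, against 25.1% of all genes that rose. The closest ones that rose were DHX29, a helicase of translation initiation, at a distance of 88.8 kb, with a difference of 2.02, and MTREX at 140.7 kb, with 2.56. MTREX, the gene with the profile nearest to GPX8, lay at 8.43, 8.23, 8.76 and 9.07 in RWDD4 clones 17, 24, 5 and 6, against 5.03, 6.59, 6.28 and 6.35 in control clones 2, 3, 4 and 5. Its clones took the same extremes as those of GPX8, with clone 6 highest and control clone 2 lowest. ESM1, at 174.6 kb on the other side, rose by 1.90, while the nearer MCIDAS, CCNO and GZMK lay at 0.18, -0.14 and -0.19 and did not pass. GZMK averaged 3.04 in the RWDD4 clones and 3.22 in the control clones, and CDC20B 3.91 and 4.00. These levels were below the array medians over all probe sets, 4.89 to 4.96, so a change in either gene could have been missed.

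TXNRD1 (chr12:104215779-104350307) holds the small gene EID3 within its span, which rose by 1.06 (limma, adjusted p 0.000951). Whether the probe sets of overlapping genes read only 1 of them was not determined. Around TXNRD1, 8 of 12 genes rose and none fell (median 0.85), against 25.1% of all genes that rose. Among the 8 was HCFC2 at 109.3 kb with 1.76. The counts of neighbours were not adjusted for genomic span, with which the differences varied. TXN (chr9:110243810-110256507) had 5 measured neighbours within the same distance, of which 2 rose, and the nearest, C9orf152 and TXNDC8, lay at 0.00025 and -0.24 and did not pass. TXNDC8 averaged only 3.12 in the RWDD4 clones and 3.36 in the control clones, below the array medians over all probe sets (4.89 to 4.96). OSGIN1 (chr16:83953240-83966332) had 10, of which 2 rose and 1 fell, the last being MLYCD at 26.2 kb with -0.36 (limma, adjusted p 0.039). NECAB2, whose span overlaps that of OSGIN1, lay at -0.20 and did not pass (limma, adjusted p 0.21). DNA copy number was not measured here, and the neighbours were taken by position alone.

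**Figure D4:**
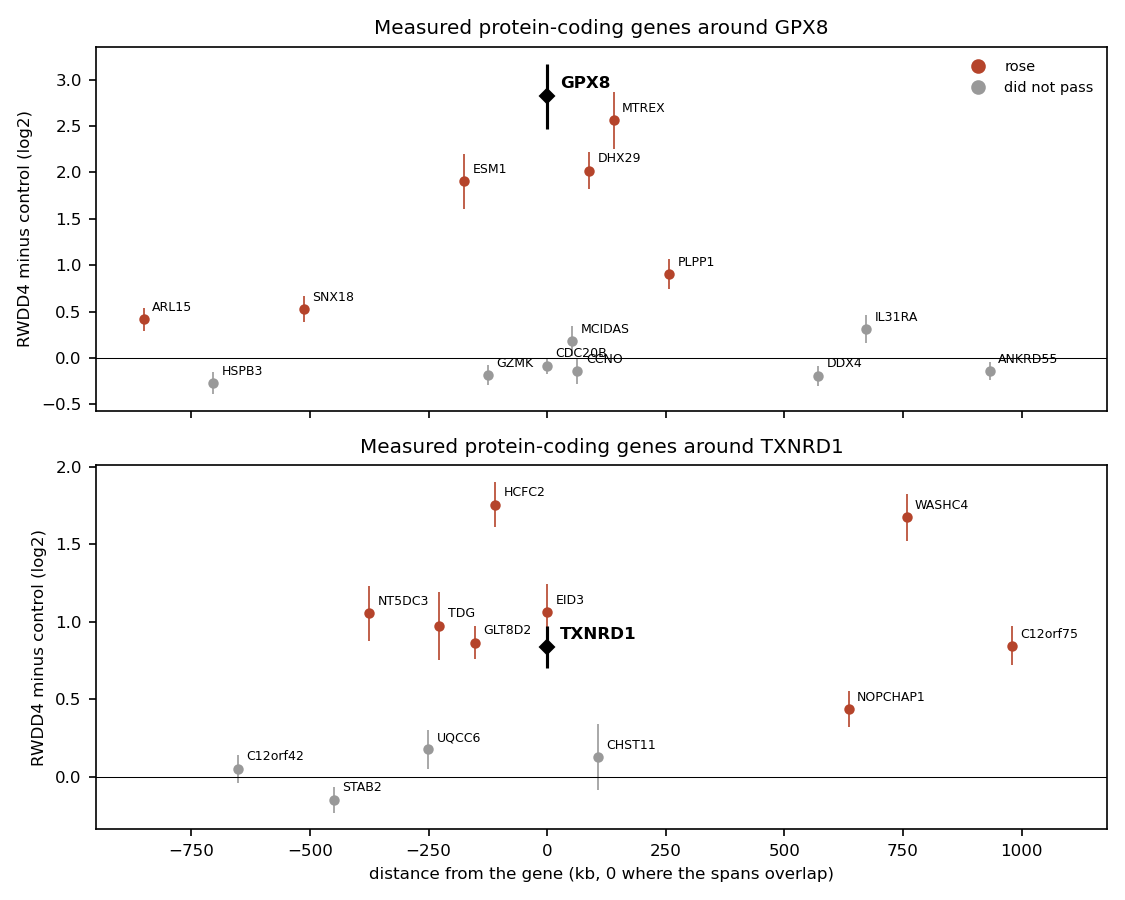
Difference of RWDD4 minus control clones (log2, vertical axis, with SE) of the measured protein-coding genes within 1000 kb of GPX8 (top) and TXNRD1 (bottom), by distance in kb, with 0 for overlapping spans and the gene itself as a black diamond. Around GPX8, ESM1, DHX29 and MTREX lie at 1.90 to 2.56 while CDC20B, MCIDAS and CCNO lie near 0. CDC20B and GZMK had levels below the array medians over all probe sets. Around TXNRD1 8 of 12 genes rose, against 25.1% of all genes.

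Under other processing the directions of all 4 genes stayed as reported in each alternative run. For TXN and OSGIN1 the greatest shift came from median centring, to 0.89 and -0.49. For GPX8 and TXNRD1 it came from a fit that also held, as a covariate, where each array lay on 1 axis. That was the main axis along which clones varied within their own group, taken over both groups together. On that axis RWDD4 clones lay at 0.60 to 1.09, against -1.77 to -0.37 for control clones, with clone 2 at the low end, so the axis ran along the group difference. With the covariate GPX8 lay at 0.69 (SE 0.27), TXNRD1 at 0.29 (SE 0.23), TXN at 0.95 (SE 0.31) and OSGIN1 at -0.39 (SE 0.22). TXN and OSGIN1 thus moved little and GPX8 lost most of its difference. The axis was computed from these same arrays and genes. The loading of GPX8 on it exceeded that of 99.9% of genes, against 54.1% for TXN and 49.2% for OSGIN1. How far each gene moved was therefore partly built into the covariate and is no independent check. Of the 77 other redox genes none passed limma's test in that fit, and 11 had an unadjusted p under 0.05; over all genes 1 passed and 1910 had an unadjusted p under 0.05.

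**Figure D5:**
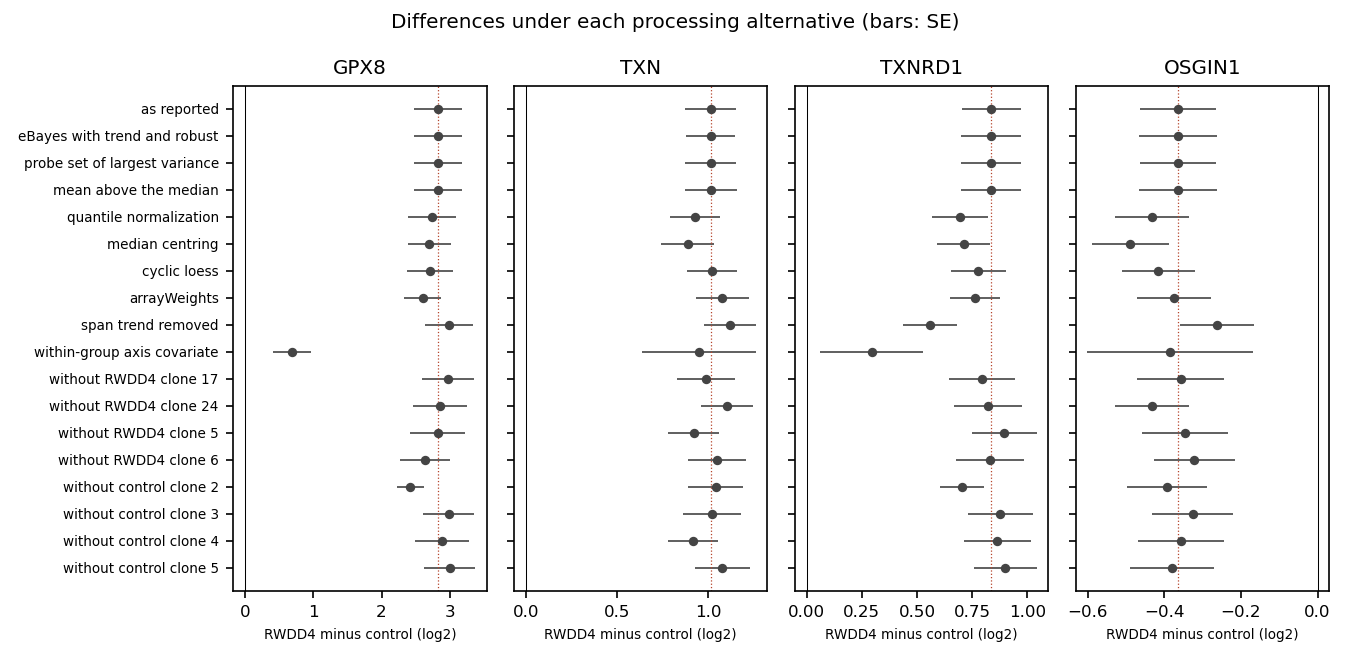
Difference of RWDD4 minus control clones (log2, horizontal axis, a separate scale per gene) with its SE for GPX8, TXN, TXNRD1 and OSGIN1 under each processing alternative (rows), with a dotted line at the reported value. GPX8 falls to 0.69 and TXNRD1 to 0.29 with the within-group axis in the fit, while TXN stays at 0.95.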

How the data were processed

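RNA of 8 PC-3 clones was measured on 1 Affymetrix array each, and the deposited values are log2 values per probe set. The authors made them with Partek and RMA, per the submitters' processing notes, which give no version or settings. Scan dates, batches and the genome build are not given in the sources used, and the number of arrays limits the precision. Of 53617 probe sets, the platform annotation paired 16098 with 1 gene symbol and none with several, and 37519 were unlisted. They stood for 14884 genes, all found by gene ID in the RefSeq gene table (GRCh38.p14); 779 had more than 1 probe set, and the one with the highest mean was used.

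RWDD4 minus control was fitted for all genes in limma 3.58.1 (lmFit, then eBayes; R 4.3.3) with no covariate, and two-sided p-values were adjusted over all genes by Benjamini-Hochberg; RWDD4 was also tested over the 70 exact relabellings. P-values measure the spread between clones. The steps were tested on simulated data.

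The 4 genes and the lists were chosen with earlier results of these data known. Named in addition were 19 partners of the 4 genes by function (6 of them not analysed here), from each list the up to 3 most changed genes that passed in each direction, and the 3 protein-coding genes nearest to each gene by profile; further list members are named for their role, and neighbours for their position. Marker lists served to check the cell type. Alternatives were another variance model (trend and robust), the most variable probe set, a filter on low means, quantile, median and cyclic loess scaling, array weights, removal of a lowess trend over span (0.3), the within-group axis and leaving out each clone. Promoter sequences are RefSeq's (GRCh38.p14); all 4 genes matched.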

Additional observations from a re-analysis of the deposited data

Results flagged for a closer look

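Of 124 sets of 4 clones examined (each named gene in each group), 6 held a clone that stood apart, where chance gives about 5%. The number beside each is its gap to the nearest clone as a share of the group's range. RWDD4 clone 6 had the lowest RWDD4 level of its group (9.87, against 10.42 to 10.46 in the others; 0.936) and the lowest NXN level (6.06, against 7.37 to 7.55; 0.877). RWDD4 clone 5 was high for PRDX3 (11.23, against 10.73 to 10.75; 0.954), and RWDD4 clone 17 for TKT (10.96, against 10.71 to 10.73; 0.896). Control clone 2 was high for TXN2 (9.29, against 8.95 to 8.96; 0.969), and control clone 3 for HMOX1 (7.06, against 6.59 to 6.65; 0.877). No group of GPX8, TXN, TXNRD1 or OSGIN1 met this criterion.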

How the results depend on the processing

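With any 1 clone left out, the difference of GPX8 ran from 2.42 to 3.00, of TXN from 0.91 to 1.10, of TXNRD1 from 0.70 to 0.90, of OSGIN1 from -0.43 to -0.32 and of RWDD4 from 2.70 to 3.15. Over all genes 3372 to 3737 rose and 2258 to 3031 fell, and over the redox lists 21 to 26 rose and 16 to 20 fell. TXNRD1 was 0.56 with the span trend removed and OSGIN1 -0.49 after median centring, where 5765 of all genes fell. With the within-group axis in the fit GPX8 was 0.69 and TXNRD1 0.29, RWDD4 was 1.88 (limma, adjusted p 0.159), and 0 of the redox genes rose and 0 fell, against 0 of all genes that rose and 1 that fell. There ERO1A, TXNL1, GLRX and SECISBP2 turned to -0.30, -0.26, -0.078 and -0.12, and TXNRD2, MSRB1 and NOXA1 to 0.033, 0.028 and 0.0085, none past the test; the cause was not tested. Falls numbered 3 in the glutathione list after quantile normalization, 2 of the NADPH suppliers after each of the 3 scalings, with array weights, with the filter on low means and without control clone 2, and 2 in the folding list after quantile normalization, median centring or removal of the span trend. Among RWDD4, the partners, the most changed genes of each list and the nearest genes by profile, 52 passed. Of these 52, 44 to 52 kept their call under every alternative but the within-group axis, where 0 did. Genes named for their role or position only, such as GPX2 and SQSTM1, are not counted there. No paired analysis was possible because the groups share only clone number 5, which marks different isolates. Signal over background was not measured, and it limits what can be said of dim genes such as GPX2, GPX3 and GPX7. The same holds for NOX1, NOX4, DUOX1, DUOX2, CDC20B, GZMK and TXNDC8.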

Other observations

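RWDD4 clone 6 had, within its group, the lowest RWDD4 level, 9.87, and the highest GPX8 level, 9.09. Among control clones both were lowest in clone 2, at 6.64 for RWDD4 and 4.52 for GPX8, and highest in clone 5, at 8.0 and 6.24. With 4 clones a group no relation was tested. Of the within-group variation over all genes, the leading axis took 38.9%, and 99.9% of genes had a lower loading on it than GPX8, against 85.5% for TXNRD1, 54.1% for TXN and 49.2% for OSGIN1.

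Redox genes of mitochondria are set side by side here, chosen after their values were seen. In mitochondria, PRDX3 and NNT rose by 1.85 and 0.92 while TXN2 and TXNRD2 fell by 0.43 and 0.46. Only genes that passed are shown, so this is not a full account of the mitochondrial genes in the lists.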
